A study of Mus musculus with 24 samples.

Results

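The genes described here are 46 genes of the absorptive enterocyte, chosen by name for the digestion and absorption of nutrients and for the brush border, of the 39056 genes counted in RNA from sorted ileal cells. Each was found once in the table by its Ensembl identifier, matched to the mouse symbols of GENCODE release M21. They comprise 4 disaccharidases, 9 peptidases and other hydrolases, 3 lipid binding proteins, 7 genes of lipoprotein assembly, 4 genes of sterol and fatty acid transport, 3 sugar transporters, 5 transporters of peptides, amino acids and sodium, 3 bile acid transporters, 6 genes of the microvillus and 2 transcription factors. The mice were C57BL/6, aged 9 to 10.3 weeks, and all carried the Il4ra flox/flox alleles. Hoil1+/+ or Hoil1-/- mice either kept Il4ra (written f/f) or also carried Vil1cre, which deletes Il4ra in cells that use the villin promoter, the intestinal epithelial cells (written dIEC). The Hoil1-/- allele leaves a low level of an N-terminal part of HOIL1, so the mice model a deficiency of most but not all of the protein. Each of the 4 genotypes had 3 libraries of CD45- cells and 3 of CD45+ cells, sorted from a mixture of the epithelial and lamina propria fractions of the ileum.

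Enterocytes, the most abundant cells of the villus, carry a dense border of microvilli on which disaccharidases and peptidases complete digestion. Transporters in the same membrane take up the sugars, peptides, amino acids, sterols and bile acids that result, and absorbed fat leaves the cell as chylomicrons built around apolipoproteins. The set of genes in use changes along the bowel, with lactase, Fabp1 and sugar transport strongest in the proximal part and the bile acid carriers Fabp6 and Slc10a2 in the distal ileum, and it rises as cells leave the crypt and climb the villus.

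Promoters are shown for 4 members, each with a match to the CDX motif and to at least 1 other motif given below. Binding sites of the CDX, HNF4, GATA and HNF1 families are the ones usually described for enterocyte genes. The sequences are from RefSeq (GRCm38.p6) and run 5′ to 3′ on the strand of the gene. They end just before the RefSeq start or the first exon of GENCODE M21, whichever comes first. Capitals mark matches on either strand to TTTATNG for CDX, CAAAGTCC for HNF4, AGATAAG for the factors of the GATA family, or GTTAAT for HNF1.
Sis (chr3:72967864-72968113, minus strand): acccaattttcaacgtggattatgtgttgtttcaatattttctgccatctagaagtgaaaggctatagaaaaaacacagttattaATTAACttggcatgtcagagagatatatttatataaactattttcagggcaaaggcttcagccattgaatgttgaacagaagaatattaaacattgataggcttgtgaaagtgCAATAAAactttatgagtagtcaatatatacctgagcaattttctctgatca
Slc3a1 (chr17:85028097-85028346, plus strand): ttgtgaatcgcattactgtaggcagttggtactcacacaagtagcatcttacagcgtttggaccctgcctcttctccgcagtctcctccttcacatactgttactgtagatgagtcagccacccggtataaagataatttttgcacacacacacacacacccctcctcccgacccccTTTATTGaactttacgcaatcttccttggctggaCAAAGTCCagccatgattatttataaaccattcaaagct
Alpi (chr1:87101607-87101856, minus strand): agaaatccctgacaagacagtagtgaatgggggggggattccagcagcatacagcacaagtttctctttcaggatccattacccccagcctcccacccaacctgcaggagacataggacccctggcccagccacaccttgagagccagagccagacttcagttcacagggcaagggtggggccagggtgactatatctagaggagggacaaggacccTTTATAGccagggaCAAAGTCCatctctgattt
Fabp1 (chr6:71199629-71199826, plus strand): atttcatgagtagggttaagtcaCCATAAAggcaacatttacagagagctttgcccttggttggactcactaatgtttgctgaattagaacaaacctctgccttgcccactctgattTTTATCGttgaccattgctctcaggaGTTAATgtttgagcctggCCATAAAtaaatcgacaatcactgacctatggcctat
Sis is sucrase-isomaltase, Slc3a1 a subunit of the cystine carrier, Alpi the intestinal alkaline phosphatase and Fabp1 the liver-type fatty acid binding protein. Of the 46 members, 40 had a promoter in the RefSeq table, a window of 250 bases before to 50 after the start. The CDX letters were in 12 of the 40 (30.00%) against 12.5% of the 27025 genes in that table. For the HNF4 letters the shares were 12.5% and 1.63%, for GATA 10.00% and 3.5%, and for HNF1 20.00% and 8.24%. At least 1 of the 4 motifs was in 20 of the 40 members (50%) and in 23.1% of the 27025 genes. These shares describe letters in a window and were not tested, nor was any link between the letters and the levels below.

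Total counts on genes were 6.03 to 68.3 M (median 14.8 M) in CD45- and 14.9 to 76.8 M (median 47 M) in CD45+ libraries. Rbck1, the gene that encodes HOIL1, was at 70.9 to 131 CPM, the counts scaled to a common total of 1 M, in the 6 Hoil1+/+ and at 0 to 8.71 CPM in the 6 Hoil1-/- CD45- libraries. Il4ra, summed over all CD45- cells and over the whole gene, was at 42.0 to 187 CPM and does not check its deletion in epithelium. The sort left little immune RNA in CD45- libraries, where Ptprc was at 0 to 16.3 CPM against 180 to 845 CPM in CD45+ libraries. The study left out 3 libraries that lay apart in its principal components, of which library 23 is a CD45- library (Hoil1-/- f/f). Tests below use the other 11 CD45- libraries, and values of library 23 are given beside them. Libraries are given in a fixed order: 6, 7 and 8 for Hoil1+/+ f/f, 9, 10 and 11 for Hoil1+/+ dIEC, 1, 2 and 23 for Hoil1-/- f/f, and 3, 4 and 5 for Hoil1-/- dIEC. Nothing in the labels pairs libraries or says which came from one litter, so p-values measure the spread between these libraries.

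Of the 46 members, 45 were detected in CD45- cells and 43 had at least 3 counts in all 12 CD45- libraries. Tmprss15, which encodes enteropeptidase of the duodenum, had no count in any of the 24 libraries, where 3 counts would be 0.0439 to 0.498 CPM in CD45- and 0.0391 to 0.201 CPM in CD45+ cells. Per kilobase of exon, the highest median level over the 12 CD45- libraries was that of Apoa1 (3961 CPM per kb), the main protein of high density lipoprotein, followed by Fabp2 (1135) and Fabp6 (1121). Slc2a2, the basolateral glucose and fructose carrier, was the lowest detected member at 0.822 CPM per kb, after Slc9a3 (1.36), Mme (1.44) and Slc10a2 (1.45).

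**Figure D1:**
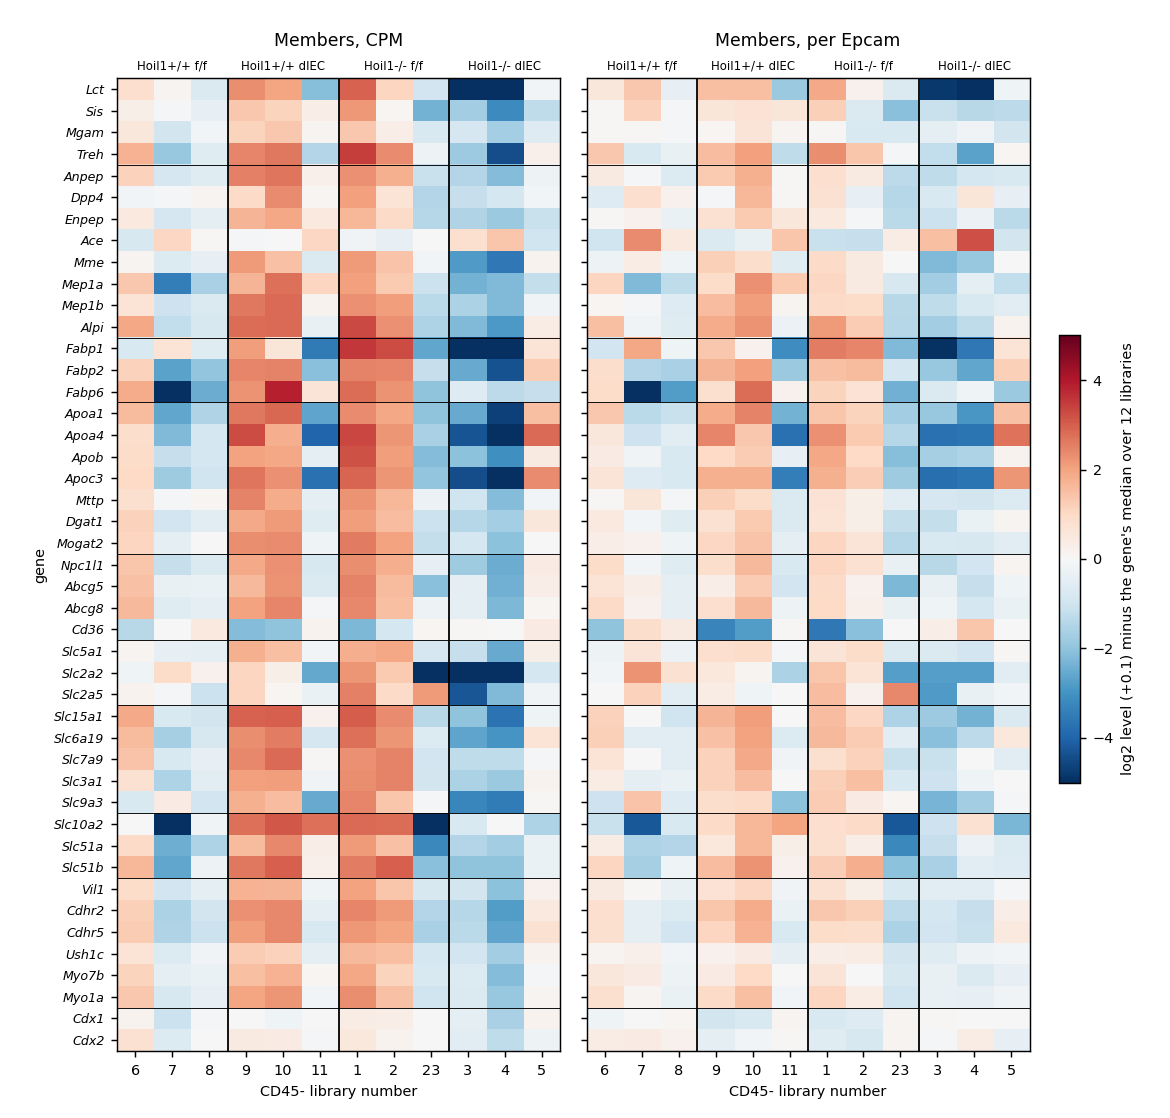
Level of 45 members (rows, grouped by role) in the 12 CD45- libraries (columns, grouped by genotype), in CPM on the left and per 100 Epcam counts on the right, each as log2 of the level + 0.1 minus the gene's median over the 12 libraries. Libraries 9, 10, 1 and 2 are high for nearly all members and libraries 3 and 4 low, with Ace and Cd36 the other way, and the colours are paler per Epcam.

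Most members rose and fell together from library to library, over a range wider than that of Epcam, a surface protein of all intestinal epithelial cells. The CPM ranges of Ace, Cd36, Cdx1 and Cdx2 (5.18, 6.52, 4.05 and 4.02-fold) were narrower than the 6.79-fold of Epcam. Ace was highest in library 4 and Cd36 lowest in library 1. The summed counts of all members made up 2.38, 0.586 and 0.656% of all counts in Hoil1+/+ f/f, 5.07, 5.73 and 0.831% in Hoil1+/+ dIEC, 5.22, 3.66 and 0.527% in Hoil1-/- f/f, and 0.521, 0.455 and 2.14% in Hoil1-/- dIEC libraries. Every genotype held libraries both above and below 2%, so that the genotypes overlapped. Library 4 was the lowest for 34 of the 45 detected members, library 1 the highest for 23 and library 10 the highest for 15.

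Epcam was at 788, 282 and 518 in Hoil1+/+ f/f, 1128, 891 and 555 in Hoil1+/+ dIEC, 1324, 1189 and 552 in Hoil1-/- f/f, and 428, 195 and 679.8 in Hoil1-/- dIEC libraries, in CPM. The highest library was thus 6.79 times the lowest, whereas the median over the 43 members was a 32.6-fold range in CPM. Relative to Epcam (counts per 100 Epcam counts) the median range was 11.4-fold, and the standard deviation of the log2 level was lower than in CPM for 41 of the 43 (median 1.11 against 1.68). In bulk RNA, fewer enterocytes and less of these transcripts per enterocyte cannot be told apart. The 2 exceptions were Ace, the angiotensin converting enzyme, and Cd36, a fatty acid translocase, both also made by endothelial cells.

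With libraries pooled over the other genotype, without weighting for the unequal groups, neither difference in Epcam passed a test. The sign of so small a difference can depend on that pooling. Libraries 1 and 2 nevertheless lay above all Hoil1+/+ f/f and all Hoil1-/- dIEC libraries, and the Hoil1 by Il4ra interaction of Epcam (the Hoil1 effect in dIEC minus that in f/f) was -2.74 (standard error 0.82, adjusted p = 0.142, edgeR) on the CPM scale. The 5 Hoil1-/- libraries averaged 763 ± 484 CPM (SD, n = 5), against a mean of 694 ± 302 CPM (SD, n = 6) over the 6 Hoil1+/+ libraries, a difference of -0.04 in mean log2(CPM + 0.1) (p = 0.948, two-sided exact permutation test). In dIEC it was at 646 ± 332 CPM (SD, n = 6) and in f/f libraries at 820 ± 439 CPM (SD, n = 5), a difference of -0.34 (p = 0.554, two-sided exact permutation test). The smallest p that these group sizes allow is 0.00433.

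Other epithelial and non-epithelial markers moved across the same libraries. The 7 endothelial markers summed to 892 and 1566 CPM in libraries 1 and 2, 1337 and 1279 CPM in libraries 9 and 10, and 5142 and 6144 CPM in libraries 3 and 4, and no library was outside the range of libraries 1 and 4. Over all 12 libraries the sum of 6 stromal markers ranged from 424 CPM in library 1 to 10339 CPM in library 4, the sum of 4 smooth muscle markers from 340 to 6630 CPM and that of 8 pan-epithelial markers from 1470 to 12478 CPM. Olfm4, a marker of crypt base cells, was at 65.6 to 130 counts per 100 Epcam counts in libraries 6, 9, 10, 1 and 2 and at 218 to 470 in the others. Krt20, a keratin of the villus, was at 18 to 38.1 per 100 Epcam counts in libraries 7, 8, 11, 23, 3 and 4 and at 77.2 to 108 in the other 6. The part of these cell types in the results below was not tested.

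Ages in the labels varied within and between genotypes. Libraries 9 and 10 (both 9.7 weeks), 1 and 2 (both 9.4 weeks) and 3 and 4 (both 9.6 weeks) share an age and a genotype, and the median member differed within these 3 pairs by 1.18 to 1.79-fold in CPM. In the other 9 pairs of one genotype the median difference was 1.39 to 10.7-fold. No age was shared by Hoil1+/+ and Hoil1-/- libraries of one Il4ra genotype. At 9.0 weeks library 11 (Hoil1+/+ dIEC) exceeded library 7 (Hoil1+/+ f/f) for 33 of 43 members, by a median of 0.58 (log2 CPM), and fell below it by a median of 0.40 per Epcam. At 9.1 weeks library 5 (Hoil1-/- dIEC) exceeded library 8 (Hoil1+/+ f/f) for 34 of 43, by a median of 0.69 in log2 CPM and 0.30 per Epcam. These are single libraries with no test, and for the other contrasts age and genotype cannot be told apart.

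The first comparison asked how loss of HOIL1 changed the members, averaged over Il4ra genotypes. No member passed the test. On the CPM scale (TMM-scaled counts) the median log2 fold change of the 45 members tested was -0.28 against -0.08 for all 16453 genes, with 12 above and 33 below 0. None passed an adjusted p of 0.05 in the quasi-likelihood test of edgeR, where 0.0182% of all genes did, and none had an unadjusted p under 0.05, against 868 of all genes. The largest change was that of Mep1a, at -1.09 (standard error 0.74, adjusted p = 0.985, edgeR). On the Epcam scale, in which the library size was set in proportion to the Epcam count, the median was -0.38 against -0.27 for all genes, and again no member passed (0% of all genes, 618 at an unadjusted p under 0.05, none of them a member). The CPM median turned to 0.21 without library 6 and was -0.87 without library 5.

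Deletion of Il4ra in the epithelium, averaged over Hoil1 genotypes, was compared in the same way. The members' median was -0.60 on the CPM scale, where all genes had 0.06, with 5 members above and 40 below 0. On the Epcam scale it was -0.25 against 0.63. No member and no gene passed on either scale (0% of all genes, edgeR), and 1 member had an unadjusted p under 0.05 on each, against 971 and 911 of all genes. With the likelihood ratio test of edgeR and with DESeq2 no member passed on either scale either, for this effect or for that of Hoil1.

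The second question was whether the Hoil1 effect differed between dIEC and f/f mice, which is the Hoil1 by Il4ra interaction (the Hoil1 effect in dIEC minus that in f/f, so that a negative value means a lower effect in dIEC). The fitted values of the members lay almost all on one side of 0, although none passed on the CPM scale. On the CPM scale 43 of 45 were below 0, with a median of -4.95 against 0.29 for all genes. An unadjusted p under 0.05 was found for 39 of the 45 (86.7%) and for 20.7% of all genes, but no member and no gene passed after adjustment (0% of all genes, lowest adjusted p of a member 0.106, edgeR). The likelihood ratio test of edgeR passed 34 members among 1223 of 16453 genes that passed in all, and DESeq2 32 among 1466. With all 12 libraries the members' median was -4.54.

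Within each Il4ra genotype the fitted effects of Hoil1 lay on opposite sides of 0. In f/f mice 43 of 45 members were above 0 in Hoil1-/- cells, with a median log2 fold change of 2.19 (all genes -0.17, CPM scale). In dIEC mice 43 were below 0, with a median of -2.69 (all genes 0.06, CPM scale). On the Epcam scale the medians were 0.74 in f/f (all genes -1.94) and -1.50 in dIEC (all genes 1.42). The share of all genes with an unadjusted p under 0.05 is not given here for these effects. That threshold was met in f/f by 18 members on the CPM and 2 on the Epcam scale, and in dIEC by 36 and 19. No member passed in either (0.0365 and 0.00608% of all genes passed on the CPM scale and 0% and 0% on the Epcam scale, edgeR). Libraries 1 and 2 exceeded all 3 Hoil1+/+ f/f libraries in CPM for 38 of 45 members, against 8.29% of the 20776 genes with a count, and with library 23 included this held for 1 member and 1.90% of genes. Per Epcam it held for 19 members and 1.93% of genes, while 4 members and 49.8% of genes lay below instead. With library 23 it held per Epcam for 0 members and 0.337% of genes. In CPM the 3 Hoil1-/- dIEC libraries lay below all 3 Hoil1+/+ dIEC libraries for 15 members, against 3.19% of genes. Per Epcam they did so for 14 members, against 0.722% of genes, and for the other members the groups overlapped.

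**Figure D2:**
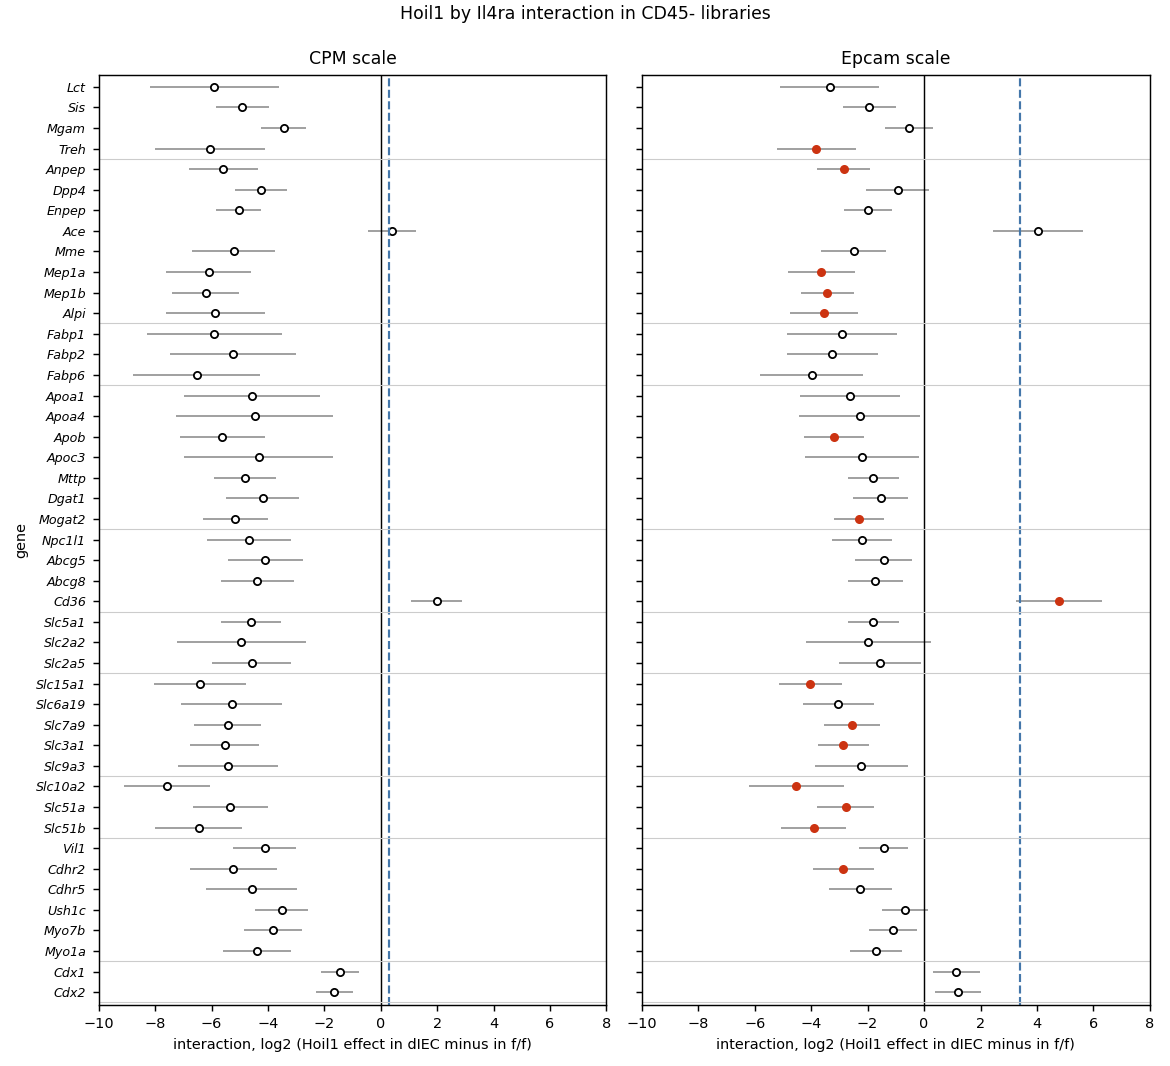
Hoil1 by Il4ra interaction of 45 members on the CPM scale (left) and the Epcam scale (right), in log2 with bars of 1 standard error from the edgeR fit of 11 CD45- libraries, where filled points passed an adjusted p of 0.05 and the dashed line is the median of all 16453 genes. On the CPM scale 43 members lie below 0 and none is filled, and on the Epcam scale 15 are filled, of which only Cd36 lies above 0.

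On the Epcam scale the interaction passed for 15 of 45 members (33.3%), 14 below and 1 above 0. The scale moved all genes: their median was 3.39, 43.8% of all genes passed, and of all genes 43.4% passed above and 0.383% below 0. The share of members that passed was therefore under that of all genes, and the direction was the other way, with 14 members among the 63 genes that passed below 0 (31.1% of the members and 22.2% of the 63). Their median was -2.25, which is -5.65 relative to all genes, beside -5.24 on the CPM scale. An unadjusted p under 0.05 was found for 20 members (44.4%) and 59.0% of all genes.

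These calls rested on which libraries and which epithelial reference entered. With library 23 included, with 8 pan-epithelial markers in place of Epcam, or with Epcam as a covariate, 0 of the 45 members passed. Leaving out library 1, 2, 3, 4, 7, 8, 9 or 10 also left 0, while 25 passed without library 5, where 9198 of 16343 genes did. Without library 6 it was 18 members among 8368 of 16233 genes, and without library 11 it was 22 among 9810 of 16019. Each of the 15 stayed on its side of 0 under all 17 alternatives, but passed under only 3 to 6 of them, and the sizes moved. With Epcam as a covariate the members' median was -1.06 (all genes 0.08), with Treh at -0.13, Alpi at -1.34 and Cd36 at 0.94. In the paragraphs below each interaction is on the Epcam scale from edgeR's quasi-likelihood test unless said otherwise, and levels are counts per 100 Epcam counts or CPM as stated.

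**Figure D3:**
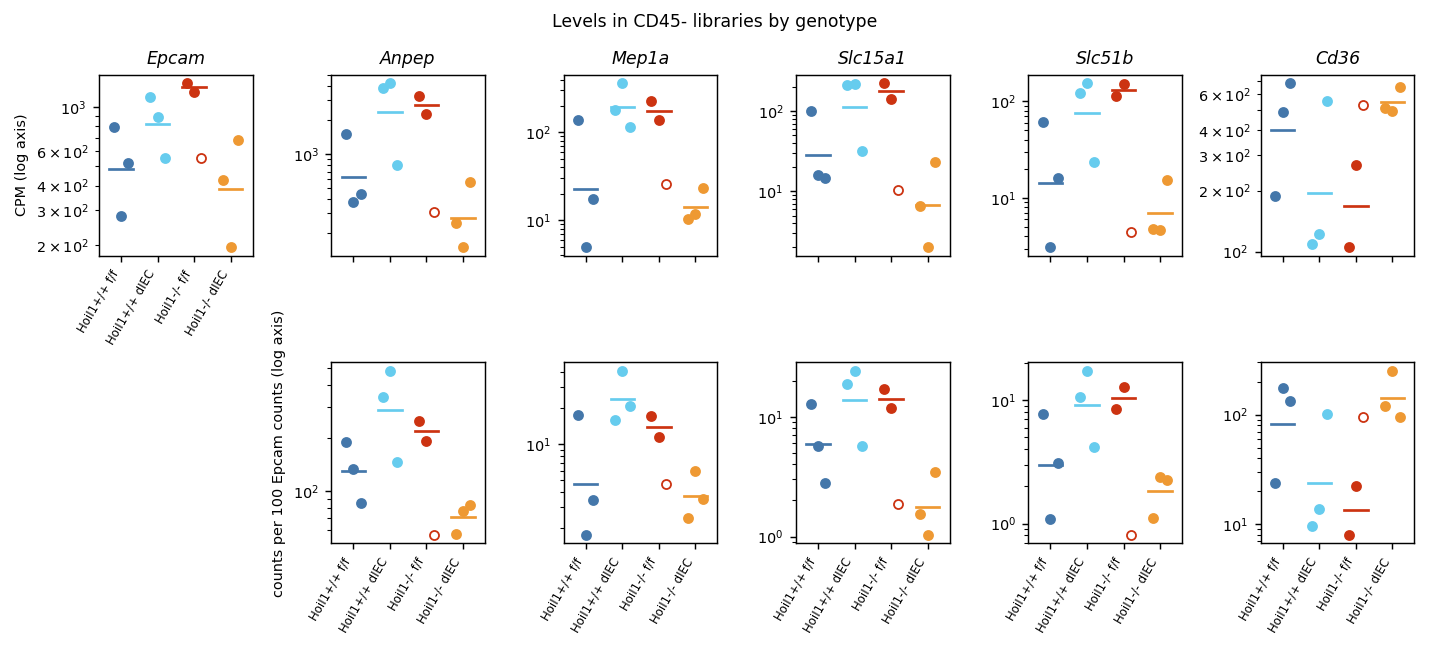
Epcam and 5 members that passed on the Epcam scale, by genotype, in CPM (upper row) and counts per 100 Epcam counts (lower row), all on log axes, with 1 point per CD45- library, lines at the geometric mean of the libraries tested, and library 23 as the open point. For Anpep, Mep1a, Slc15a1 and Slc51b the filled Hoil1-/- f/f points lie above all Hoil1-/- dIEC points in both rows, and library 23 lies apart from them.

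Among the disaccharidases, Treh, the trehalase, passed, and all 4 members were below 0. Treh (chr9:44673233-44686305, plus strand) was at 7.92, 1.74 and 2.34 in Hoil1+/+ f/f, 9.05, 12.9 and 1.2 in Hoil1+/+ dIEC, 15.5, 8.04 and 2.82 in Hoil1-/- f/f, and 1.22, 0.387 and 3.25 in Hoil1-/- dIEC libraries, per 100 Epcam counts. Libraries 1 and 2 exceeded all Hoil1+/+ f/f libraries, while the dIEC groups overlapped, with library 11 below library 5. The interaction was -3.81 (standard error 1.39, adjusted p = 0.0428, edgeR). Lct, the lactase of milk sugar digestion, was at 149, 92.2 and 49.8 in Hoil1+/+ f/f, 416, 328 and 19 in Hoil1+/+ dIEC, 634, 176 and 42.2 in Hoil1-/- f/f, and 1.54, 0.578 and 74.8 in Hoil1-/- dIEC libraries, in CPM, a 1097-fold range that was among the widest of the members and is 162-fold per Epcam. Its interaction, -3.35 (standard error 1.77, adjusted p = 0.118, edgeR), did not pass. Sis was at 163, 126 and 100.3 in Hoil1+/+ f/f, 344, 295 and 169 in Hoil1+/+ dIEC, 602, 143 and 25.8 in Hoil1-/- f/f, and 39.8, 14.9 and 54.9 in Hoil1-/- dIEC libraries, in CPM, with an interaction of -1.94 (standard error 0.94, adjusted p = 0.0941, edgeR), and Mgam, maltase-glucoamylase, varied least of the 4, from 31.6 to 94.7 per 100 Epcam counts, with an interaction of -0.53 (standard error 0.84, adjusted p = 0.598, edgeR).

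Among the peptidases and hydrolases 8 were tested, 7 were below 0 and 4 passed. Anpep (chr7:79821803-79861059, minus strand), aminopeptidase N, was at 1498, 376 and 444 in Hoil1+/+ f/f, 3847, 4291 and 806 in Hoil1+/+ dIEC, 3290.2, 2286 and 309 in Hoil1-/- f/f, and 244, 149 and 563 in Hoil1-/- dIEC libraries, in CPM. Per 100 Epcam counts it was at 190.1, 133 and 85.6 in Hoil1+/+ f/f, 341, 482 and 145 in Hoil1+/+ dIEC, 249, 192 and 56 in Hoil1-/- f/f, and 57.1, 76.6 and 82.8 in Hoil1-/- dIEC libraries. Libraries 1 and 2 exceeded the Hoil1+/+ f/f libraries and all 3 Hoil1-/- dIEC libraries lay below the Hoil1+/+ dIEC libraries on both scales, and library 23 was lower per Epcam than every other library. The interaction was -2.85 (standard error 0.95, adjusted p = 0.0386, edgeR).

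Mep1a and Mep1b encode the subunits of meprin, a metalloprotease of the brush border. Mep1a (chr17:43474324-43502812, minus strand) was at 17.4, 1.74 and 3.4 in Hoil1+/+ f/f, 15.9, 41.2 and 20.8 in Hoil1+/+ dIEC, 17, 11.5 and 4.67 in Hoil1-/- f/f, and 2.43, 5.99 and 3.47 in Hoil1-/- dIEC libraries, per 100 Epcam counts. Its f/f groups overlapped, since library 6 was above library 1, and its dIEC groups did not, giving an interaction of -3.64 (standard error 1.2, adjusted p = 0.0386, edgeR). Mep1b was at 19.2, 16.3 and 11.2 in Hoil1+/+ f/f, 52.1, 76.1 and 19.5 in Hoil1+/+ dIEC, 34.7, 33.7 and 6.67 in Hoil1-/- f/f, and 7.39, 10.4 and 12.2 in Hoil1-/- dIEC libraries, per 100 Epcam counts. Neither the f/f groups without library 23 nor the dIEC groups overlapped for Mep1b, and the interaction was -3.43 (standard error 0.93, adjusted p = 0.0386, edgeR). Alpi (chr1:87098002-87101606, minus strand) was at 25.3, 7.78 and 5.75 in Hoil1+/+ f/f, 32, 41.9 and 7.15 in Hoil1+/+ dIEC, 38.5, 21.1 and 3.21 in Hoil1-/- f/f, and 2.57, 3.62 and 9.88 in Hoil1-/- dIEC libraries, per 100 Epcam counts, with libraries 6, 1 and 2 high among the f/f libraries and 9 and 10 among the dIEC libraries. Its interaction was -3.54 (standard error 1.21, adjusted p = 0.0394, edgeR).

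The other peptidases did not pass. The interaction was -2.0 (standard error 0.85, adjusted p = 0.065, edgeR) for Enpep, the glutamyl aminopeptidase, -2.49 (standard error 1.16, adjusted p = 0.0826, edgeR) for Mme, neprilysin, and -0.93 (standard error 1.12, adjusted p = 0.478, edgeR) for Dpp4, dipeptidyl peptidase 4. Ace was the exception in direction. In CPM it was at 590.1, 2134 and 1077 in Hoil1+/+ f/f, 1004, 1013 and 2141 in Hoil1+/+ dIEC, 913, 786 and 1059.8 in Hoil1-/- f/f, and 1808, 2718 and 525 in Hoil1-/- dIEC libraries. It was highest in library 4, where 34 members were lowest, and its interaction was 0.39 (standard error 0.86, adjusted p = 0.845, edgeR) on the CPM scale and 4.04 (standard error 1.6, adjusted p = 0.0516, edgeR) on the Epcam scale, close to the median of all genes on each.

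No fatty acid or bile acid binding protein passed, and all 3 were below 0. Fabp2, the intestinal fatty acid binding protein, was at 1820.2, 127 and 209 in Hoil1+/+ f/f, 4508, 4578 and 193 in Hoil1+/+ dIEC, 4587, 4485 and 370.1 in Hoil1-/- f/f, and 145, 40.5 and 1955 in Hoil1-/- dIEC libraries, in CPM. Libraries 9, 10, 1 and 2 stood alike at 4485 to 4587 CPM, and library 4 was the lowest. Its interaction was -3.25 (standard error 1.62, adjusted p = 0.101, edgeR). Fabp6, the ileal bile acid binding protein, was at 1749.8, 3.24 and 87.4 in Hoil1+/+ f/f, 2280.2, 7215 and 767 in Hoil1+/+ dIEC, 3380.00, 2313 and 121 in Hoil1-/- f/f, and 306, 195 and 221 in Hoil1-/- dIEC libraries, in CPM, and Fabp1 at 26.7, 72.5 and 29.3 in Hoil1+/+ f/f, 191, 68.4 and 3.76 in Hoil1+/+ dIEC, 516, 436 and 7.39 in Hoil1-/- f/f, and 0.512, 0.889 and 71.5 in Hoil1-/- dIEC libraries, in CPM. Their interactions were -3.99 (standard error 1.82, adjusted p = 0.0786, edgeR) and -2.9 (standard error 1.94, adjusted p = 0.206, edgeR).

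The ratio of Fabp6 to Fabp1 differed widely between libraries. It was 65.6, 0.0447 and 2.98 in Hoil1+/+ f/f, 11.9, 105 and 204 in Hoil1+/+ dIEC, 6.55, 5.31 and 16.4 in Hoil1-/- f/f, and 597, 219 and 3.09 in Hoil1-/- dIEC libraries, in counts over counts. Every genotype except Hoil1-/- f/f thus spanned more than 10-fold. In library 7, labelled ileum, Fabp6 was at 3.24 CPM with no Slc10a2 count, while the ileal genes Slc51a and Slc51b were detected at 13.2 and 3.08 CPM, and in libraries 3, 4 and 11 the proximal genes were low, with Fabp1 at 0.512, 0.889 and 3.76 CPM. The summed ileum list (Fabp6, Slc10a2, Slc51a and Slc51b) over the summed proximal list (Lct, Tmprss15, Alpi, Fabp1, Apoa4, Slc2a2, Slc2a5 and Npc1l1) ranged from 0.0491 in library 7 to 4.92 in library 11. The part of bowel position in the interaction was not tested. Scaled to Epcam, 3 of the 4 ileal genes and 1 of the 7 proximal genes tested passed below 0, as 0.383% of all genes did, and the difference between these short lists was not tested.

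**Figure D4:**
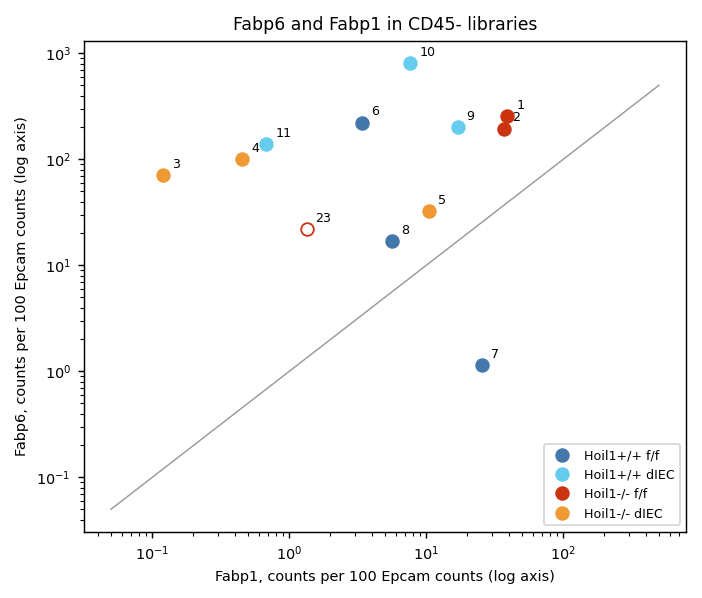
Fabp6 against Fabp1 in the 12 CD45- libraries, both in counts per 100 Epcam counts on log axes, coloured by genotype and marked with the library number, with library 23 open and a line of equal counts. Library 7 is the only one below the line, and libraries 3, 4 and 11 lie at the far left with Fabp1 under 1.

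The genes of chylomicron assembly were all below 0, and Apob and Mogat2 passed. Apob (chr12:7977648-8016835, plus strand), the structural protein of the chylomicron, was at 37, 24.7 and 16.5 in Hoil1+/+ f/f, 55.8, 66.9 and 20.7 in Hoil1+/+ dIEC, 107, 55.8 and 6.21 in Hoil1-/- f/f, and 8.72, 9.41 and 31.1 in Hoil1-/- dIEC libraries, per 100 Epcam counts. Library 1 was the highest and library 23 the lowest, although both are Hoil1-/- f/f, and the dIEC groups overlapped. The interaction was -3.18 (standard error 1.06, adjusted p = 0.0387, edgeR). Mogat2 (chr7:99219084-99238619, minus strand), the monoacylglycerol acyltransferase, was at 10.6, 9.73 and 7.34 in Hoil1+/+ f/f, 17.5, 22.8 and 6.03 in Hoil1+/+ dIEC, 17.8, 13.2 and 3.09 in Hoil1-/- f/f, and 5.0, 4.83 and 5.86 in Hoil1-/- dIEC libraries, per 100 Epcam counts, with all Hoil1-/- dIEC libraries below the Hoil1+/+ dIEC libraries, by as little as 5.86 against 6.03. Its interaction was -2.31 (standard error 0.89, adjusted p = 0.0489, edgeR), just under the threshold.

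Apoa1 was the most abundant member, at 9320.4, 512 and 1093 in Hoil1+/+ f/f, 18919, 22607 and 496 in Hoil1+/+ dIEC, 16064, 11908 and 757 in Hoil1-/- f/f, and 534, 121 and 8699.5 in Hoil1-/- dIEC libraries, in CPM. Apoa4, an apolipoprotein of chylomicrons, was at 1115, 131 and 327 in Hoil1+/+ f/f, 5781, 2128 and 38.7 in Hoil1+/+ dIEC, 6051, 2793 and 195 in Hoil1-/- f/f, and 30.4, 14.5 and 4262 in Hoil1-/- dIEC libraries, in CPM, so that library 5 stood with libraries 9, 1 and 2 and more than 100-fold above libraries 3 and 4 of its own genotype. Apoc3, which slows the clearance of such particles, ranged from 1.33 CPM in library 4 to 451 CPM in library 1, with 309 CPM in library 5. The interactions were -2.63 (standard error 1.77, adjusted p = 0.208, edgeR) for Apoa1, -2.29 (standard error 2.13, adjusted p = 0.357, edgeR) for Apoa4 and -2.2 (standard error 2.02, adjusted p = 0.35, edgeR) for Apoc3. Mttp, the transfer protein that loads lipid onto Apob, and Dgat1, the last acyltransferase of triglyceride synthesis, had interactions of -1.8 (standard error 0.91, adjusted p = 0.106, edgeR) and -1.54 (standard error 0.98, adjusted p = 0.185, edgeR).

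Of the genes of sterol and fatty acid transport, Cd36 passed and was above 0, as did 43.4% of all genes. The median of all genes was 3.39 on the Epcam scale. Cd36 (chr5:17781690-17888801, minus strand) was at 187, 492 and 684 in Hoil1+/+ f/f, 109, 122 and 557 in Hoil1+/+ dIEC, 105, 267 and 529 in Hoil1-/- f/f, and 515, 493 and 649 in Hoil1-/- dIEC libraries, in CPM, lowest in libraries 9, 10 and 1 where most members were highest. Per 100 Epcam counts it was at 23.8, 174 and 132 in Hoil1+/+ f/f, 9.62, 13.7 and 100.4 in Hoil1+/+ dIEC, 7.91, 22.4 and 96 in Hoil1-/- f/f, and 120.1, 253 and 95.4 in Hoil1-/- dIEC libraries, where libraries 1 and 2 lay below all Hoil1+/+ f/f and all Hoil1-/- dIEC libraries, library 23 did not, and the dIEC groups overlapped. The interaction was 4.78 (standard error 1.53, adjusted p = 0.0386, edgeR) on the Epcam scale and 1.98 (standard error 0.9, adjusted p = 0.24, edgeR) on the CPM scale. The endothelial marker sums were also lower in libraries 1, 2, 9 and 10 than in libraries 3 and 4. Library 5, however, had a sum of 2536 CPM with Cd36 at 649 CPM. In library 4 the sum was 6144 CPM with Cd36 at 493 CPM. The part of endothelial cells in the Cd36 values was not tested. Npc1l1, the sterol importer, and Abcg5 and Abcg8, which pump sterols back to the lumen, were below 0 and did not pass, at -2.21 (standard error 1.07, adjusted p = 0.0932, edgeR), -1.44 (standard error 1.0, adjusted p = 0.221, edgeR) and -1.73 (standard error 0.97, adjusted p = 0.137, edgeR).

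The sugar transporters were below 0 and none passed. Slc5a1, the sodium-glucose cotransporter, was at 172, 116 and 111 in Hoil1+/+ f/f, 533, 442 and 139 in Hoil1+/+ dIEC, 550.3, 595 and 87 in Hoil1-/- f/f, and 68.9, 26.7 and 188 in Hoil1-/- dIEC libraries, in CPM, with an interaction of -1.79 (standard error 0.89, adjusted p = 0.10, edgeR). Slc2a2 was at 4.01, 8.91 and 5.44 in Hoil1+/+ f/f, 9.99, 5.81 and 0.717 in Hoil1+/+ dIEC, 22.2, 11.6 and 0 in Hoil1-/- f/f, and 0, 0 and 2.49 in Hoil1-/- dIEC libraries, in CPM. It had no count in libraries 23, 3 and 4, where 3 counts would be 0.403, 0.171 and 0.133 CPM, so a level below those was not detectable there, and its interaction was -1.97 (standard error 2.21, adjusted p = 0.445, edgeR). Slc2a5, the fructose carrier, was highest in library 1 (48 CPM) and then in library 23 (37.1 CPM), the only member for which library 23 came second, with an interaction of -1.57 (standard error 1.45, adjusted p = 0.352, edgeR).

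The carriers of peptides and amino acids held 3 of the 15 members that passed, and all 5 genes of the group were below 0. Slc15a1 (chr14:121459621-121505252, minus strand), the proton-coupled peptide transporter PEPT1, was at 101, 16.2 and 14.6 in Hoil1+/+ f/f, 211, 218 and 31.5 in Hoil1+/+ dIEC, 226, 139.99 and 10.3 in Hoil1-/- f/f, and 6.66, 2.0 and 23.6 in Hoil1-/- dIEC libraries, in CPM, and at 12.9, 5.74 and 2.81 in Hoil1+/+ f/f, 18.7, 24.4 and 5.67 in Hoil1+/+ dIEC, 17, 11.8 and 1.87 in Hoil1-/- f/f, and 1.56, 1.03 and 3.47 in Hoil1-/- dIEC libraries, per 100 Epcam counts. All Hoil1-/- dIEC libraries lay below the Hoil1+/+ dIEC libraries on both scales, and the interaction was -4.03 (standard error 1.12, adjusted p = 0.0386, edgeR). Slc7a9 and Slc3a1 encode the light and heavy chains of the carrier of cystine and basic amino acids. Slc7a9 (chr7:35448796-35466036, plus strand) was at 6.24, 3.79 and 2.66 in Hoil1+/+ f/f, 8.7, 14.8 and 3.42 in Hoil1+/+ dIEC, 6.73, 8.6 and 1.73 in Hoil1-/- f/f, and 1.74, 3.92 and 2.61 in Hoil1-/- dIEC libraries, and Slc3a1 (chr17:85028376-85064236, plus strand) at 6.35, 3.56 and 3.87 in Hoil1+/+ f/f, 11, 14.4 and 4.79 in Hoil1+/+ dIEC, 11.4, 13.9 and 2.85 in Hoil1-/- f/f, and 2.31, 4.15 and 4.93 in Hoil1-/- dIEC libraries, per 100 Epcam counts. For both, libraries 1 and 2 exceeded the Hoil1+/+ f/f libraries and the dIEC groups overlapped, and the interactions were -2.56 (standard error 0.99, adjusted p = 0.0494, edgeR) and -2.86 (standard error 0.91, adjusted p = 0.0386, edgeR). Slc6a19, the neutral amino acid carrier, and Slc9a3, the sodium-proton exchanger, did not pass, at -3.04 (standard error 1.25, adjusted p = 0.0585, edgeR) and -2.22 (standard error 1.63, adjusted p = 0.247, edgeR).

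All 3 bile acid transporters passed and were below 0. Slc10a2 (chr8:5083219-5105351, minus strand), the apical sodium-dependent importer, was at 6.02, 0 and 5.31 in Hoil1+/+ f/f, 40.8, 51.8 and 41.2 in Hoil1+/+ dIEC, 43.9, 42.4 and 0 in Hoil1-/- f/f, and 3.53, 6.0 and 1.99 in Hoil1-/- dIEC libraries, in CPM. Its levels fell into 5 libraries of 40.8 to 51.8 CPM, which were all 3 Hoil1+/+ dIEC libraries and libraries 1 and 2, and 7 libraries of 0 to 6.02 CPM. Per 100 Epcam counts it was at 0.764, 0 and 1.02 in Hoil1+/+ f/f, 3.62, 5.82 and 7.42 in Hoil1+/+ dIEC, 3.32, 3.56 and 0 in Hoil1-/- f/f, and 0.824, 3.08 and 0.293 in Hoil1-/- dIEC libraries, where library 11 was higher than libraries 9 and 10, as it was for no other member below 0. The interaction was -4.52 (standard error 1.7, adjusted p = 0.0459, edgeR), in a fit where library 7 had no count. Slc51a and Slc51b encode the subunits of the basolateral exporter OST. Slc51a (chr16:32474504-32487879, minus strand) was at 17.8, 4.67 and 4.85 in Hoil1+/+ f/f, 19.6, 43 and 16.5 in Hoil1+/+ dIEC, 24.1, 17 and 1.39 in Hoil1-/- f/f, and 6.1, 11.3 and 8.54 in Hoil1-/- dIEC libraries, per 100 Epcam counts. Slc51b (chr9:65412714-65422955, minus strand) was at 7.75, 1.09 and 3.09 in Hoil1+/+ f/f, 10.7, 17.5 and 4.22 in Hoil1+/+ dIEC, 8.57, 12.8 and 0.804 in Hoil1-/- f/f, and 1.12, 2.39 and 2.27 in Hoil1-/- dIEC libraries, per 100 Epcam counts. For both, the Hoil1-/- dIEC libraries lay below the Hoil1+/+ dIEC libraries and libraries 1 and 2 above all 3 of the former, with library 23 below them. Their interactions were -2.78 (standard error 1.02, adjusted p = 0.0433, edgeR) and -3.92 (standard error 1.14, adjusted p = 0.0386, edgeR).

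The structural genes of the microvillus were all below 0, and Cdhr2 passed. Cdhr2 (chr13:54701461-54736662, plus strand), a protocadherin that links the tips of neighbouring microvilli, was at 74.5, 30.5 and 26.1 in Hoil1+/+ f/f, 111, 153 and 33 in Hoil1+/+ dIEC, 106, 94.4 and 16.8 in Hoil1-/- f/f, and 22.4, 18.9 and 52.8 in Hoil1-/- dIEC libraries, per 100 Epcam counts. Libraries 1 and 2 exceeded the Hoil1+/+ f/f libraries, library 5 lay above library 11, and the interaction was -2.86 (standard error 1.08, adjusted p = 0.0461, edgeR). Its binding partner Cdhr5 was at 1002, 146 and 194 in Hoil1+/+ f/f, 1749, 2162 and 239 in Hoil1+/+ dIEC, 1849, 1595 and 133 in Hoil1-/- f/f, and 161, 66.2 and 706 in Hoil1-/- dIEC libraries, in CPM, and had an interaction of -2.25 (standard error 1.13, adjusted p = 0.103, edgeR). Vil1, which bundles the actin core and whose promoter drives the Cre of dIEC mice, was at 758, 210.2 and 285 in Hoil1+/+ f/f, 1327, 1291 and 349.7 in Hoil1+/+ dIEC, 1605, 1045 and 233 in Hoil1-/- f/f, and 214, 95.9 and 464 in Hoil1-/- dIEC libraries, in CPM, with an interaction of -1.44 (standard error 0.87, adjusted p = 0.168, edgeR). Ush1c, Myo7b and Myo1a, a scaffold and motors of the microvillus, were at -0.69 (standard error 0.81, adjusted p = 0.469, edgeR), -1.11 (standard error 0.85, adjusted p = 0.267, edgeR) and -1.71 (standard error 0.93, adjusted p = 0.127, edgeR).

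Cdx1 and Cdx2, the homeobox factors of intestinal identity, varied least. Cdx1 was at 163, 68.4 and 134 in Hoil1+/+ f/f, 144, 125 and 147 in Hoil1+/+ dIEC, 188, 181 and 145 in Hoil1-/- f/f, and 107, 46.5 and 165 in Hoil1-/- dIEC libraries, in CPM, and Cdx2 at 138, 51.2 and 82.3 in Hoil1+/+ f/f, 114, 111 and 79.1 in Hoil1+/+ dIEC, 118, 93.1 and 83 in Hoil1-/- f/f, and 56.4, 34.4 and 69.2 in Hoil1-/- dIEC libraries, in CPM, a range of 4.05 and 4.02-fold, against 6.79-fold for Epcam. Their interactions were -1.45 (standard error 0.68, adjusted p = 0.251, edgeR) and -1.64 (standard error 0.65, adjusted p = 0.202, edgeR) on the CPM scale and 1.14 (standard error 0.84, adjusted p = 0.247, edgeR) and 1.19 (standard error 0.81, adjusted p = 0.212, edgeR) on the Epcam scale, and none passed. Both genes lay below the median of all genes on each scale, which was 0.29 on the CPM and 3.39 on the Epcam scale.

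A wider list of 49 other enterocyte genes was fitted in the same way. On the CPM scale the interaction was below 0 for 45 of the 48 tested, with a median of -3.81. None passed (edgeR, 0% of all genes), and 36 had an unadjusted p under 0.05, as did 20.7% of all genes. On the Epcam scale 43.8% of all genes passed, 43.4% above and 0.383% below 0. Of this list 32 were below 0 and 9 passed, 5 below and 4 above 0. Among those below 0 were Pdzk1, a scaffold of brush border transporters, at -5.04 (standard error 1.43, adjusted p = 0.0386, edgeR), and Naaladl1, a peptidase, at -2.93 (standard error 1.03, adjusted p = 0.0405, edgeR). Among the 4 above 0 were Slc3a2, at 3.96 (standard error 1.29, adjusted p = 0.0386, edgeR), Scarb1, at 5.31 (standard error 1.73, adjusted p = 0.0386, edgeR), and Abca1, at 4.58 (standard error 1.53, adjusted p = 0.0388, edgeR), which many other cell types also express. No gene of this list passed for the averaged Hoil1 or Il4ra effect on either scale.

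Tuft cell markers differed between libraries in another way. The 5 markers summed to 437 and 555 CPM in libraries 1 and 2 and to 25 to 78.2 CPM in the other 10, so libraries 1 and 2 were high for both tuft cell markers and the members, while libraries 9 and 10 were high for the members alone. The goblet markers summed to 46072 and 28359 CPM in libraries 1 and 2, 31093 CPM in library 6 and 2249 CPM in library 4, the lowest.

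The CD45+ libraries show how far enterocyte RNA carried over the sort. Epcam had a median of 29.7 CPM there, 4.82% of its CD45- median of 617 CPM, and the members made up 0.0190 to 0.133% of the counts. The median member stood at 1.46% of its CD45- median, and 40 of the 45 lay under the 4.82% of Epcam. In at least 1 CD45+ library 36 of the 45 had no count. Apoa1 reached 232 CPM and Vil1 40.7 CPM in library 20 (Hoil1+/+ dIEC), the highest of the 12 for each.

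A few members stood above that level in CD45+ cells. Dpp4, which encodes the T cell surface protein CD26, was at 165% of its CD45- median, and in all 12 CD45+ libraries its ratio to Epcam exceeded that of every CD45- library. Dgat1 was at 33.4% and exceeded every CD45- library relative to Epcam in 8 of 12, Anpep was at 13.9%, Cd36 at 8.07% and Slc10a2, with few counts, at 5.94%. Ptprc was at no more than 16.3 CPM in CD45- libraries, and the part of immune cells in the CD45- values of these genes was not tested.

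**Figure D5:**
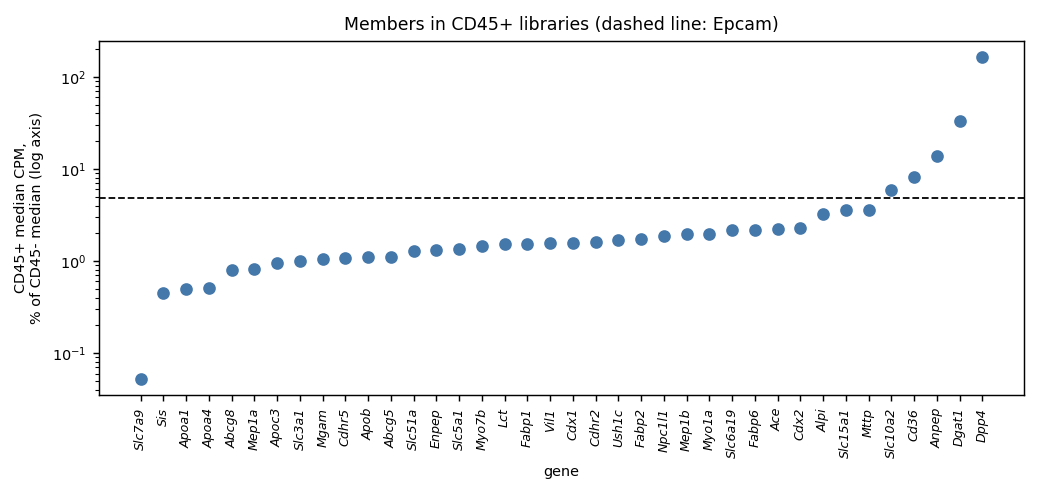
Median CPM over 12 CD45+ libraries as a percentage of the median over 12 CD45- libraries, on a log axis, for the 38 members with a CD45+ median above 0, sorted, with a dashed line at the value of Epcam (4.82%). Only Slc10a2, Cd36, Anpep, Dgat1 and Dpp4 lie above the line, and 7 detected members with a CD45+ median of 0 are not drawn.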

How the data were processed

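RNA of sorted CD45- and CD45+ ileal cells was sequenced as poly-A libraries made with strand selection. Reads were trimmed (cutadapt) and aligned to mm10, which is GRCm38, with STAR by the authors, who deposited raw featureCounts counts per gene without normalization. Versions and counting options are not given in the sources used here. CPM were computed here from total counts. Of 39056 identifiers, 38872 matched a symbol without their version suffix. Tests used edgeR 4.0.16 (quasi-likelihood, a mean per genotype, genes kept by filterByExpr at 10 counts in a library and 15 in all, Benjamini-Hochberg over all genes, threshold 0.05) in R 4.3.3 on 11 CD45- libraries, with TMM scaling or with library sizes in proportion to Epcam counts. Standard errors given with edgeR values were derived here, as the absolute log2 value divided by the square root of the F statistic of its test. DESeq2 1.42.0, other scalings, all 12 libraries and each library left out were alternatives. Simulated counts with 200 changed genes served to check the fits. Exact permutation tests used scipy 1.17.1 and a pseudocount of 0.1 CPM. Floors of 3 counts cover counting error only. No 2 libraries of a group agreed within sampling noise. Members and lists were chosen with earlier results of these data known. All members may be named, with full values for those that passed a test, or else the most abundant and most changed of a role. The values by library of other members (among them Lct, Sis, Ace, Apoa1, Apoa4, Cdhr5 and Vil1) and the single values of Apoc3 and Slc2a5 were chosen after the data were seen. Promoters are from RefSeq (GRCm38.p6), and gene positions from GENCODE M21. The value of 1 gene of the wider list is not reported here. Plots used matplotlib 3.10.9.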

Additional observations from a re-analysis of the deposited data

Results flagged for a closer look

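For 15 members the effect of Hoil1 differed between dIEC and f/f mice by the test of the interaction on the Epcam scale (edgeR, adjusted p under 0.05), which is 33.3% of the 45 tested, where 43.8% of all genes passed, 43.4% above and 0.383% below 0, around a median of 3.39. The log2 interactions below 0 were -3.81 for Treh, -2.85 for Anpep, -3.64 for Mep1a, -3.43 for Mep1b, -3.54 for Alpi, -3.18 for Apob, -2.31 for Mogat2, -4.03 for Slc15a1, -2.56 for Slc7a9, -2.86 for Slc3a1, -4.52 for Slc10a2, -2.78 for Slc51a, -3.92 for Slc51b and -2.86 for Cdhr2, and Cd36 was above 0 at 4.78. The Hoil1-/- f/f group of this test has 2 libraries of one age, and none of the 15 passed once library 23 was added. On the CPM scale none of the 15 passed with the quasi-likelihood test of edgeR.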

How the results depend on the processing

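For the averaged Hoil1 and Il4ra effects, 0 of 45 members passed on either scale under every alternative tried, although the number of all genes that passed on the CPM scale moved from 3 to 173 and from 0 to 220 (without library 2 for both), and to 135 and 143 with the likelihood ratio test of edgeR and 172 and 154 with DESeq2. For the interaction on the CPM scale, where 0 members passed, DESeq2 passed 32 and the likelihood ratio test 34, and 0 to 31 when 1 library was left out (31 among 1199 of 16019 genes without library 11, 10 among 723 of 17517 without library 2, and 1, the only gene of 16066, without library 7). On the Epcam scale, where 15 passed, 0 passed with all 12 libraries, with the pan-epithelial reference and with Epcam as a covariate, and 0 to 25 when 1 library was left out. All genes called there went from 7202 to 0 with all 3 of these settings and ranged from 0 to 9810 over libraries left out. Leaving out library 1 or 2 leaves a lone Hoil1-/- f/f library, which is assumed to vary like the other groups. The difference in Epcam between Hoil1-/- and Hoil1+/+ libraries changed sign in 5 of 11 such settings (to 0.03, 0.13, 0.06, 0.09 and 0.38, range -0.31 to 0.38, smallest exact permutation p 0.438), and that between dIEC and f/f did not. The cause of these changes was not tested. No paired analysis was possible because the labels carry no number that pairs libraries. Slc2a2 and Slc10a2 had 0 counts in some libraries and Tmprss15 in all, so levels under 3 counts could not be detected there.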
